A study of Mus musculus with 11 samples.

Results

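Apoe, Trem2, Tyrobp, Abca1, Abcg1, Lrp1, Clu, Nr1h3 and Soat1, 9 of the 32287 features in the count matrices, were followed through the cells of the mouse brain vasculature. The members were named by symbol and were chosen by their roles in lipid handling with earlier results of these data known. The cell types in which they were summed were selected on measured UMIs (unique molecular identifiers, each standing for 1 captured transcript) of marker genes, so levels between cell types are a description with no test. None of the 9 members was a gate marker.

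The cells came from 11 untreated mice. There were 6 R182C-TgN3 mice, 3 at 6 months and 3 at 9 months of age, which model the hereditary small vessel disease CADASIL, and 5 WT-TgN3 control mice, 3 at 6 months and 2 at 9 months. Each genotype held females and males at both ages. Mice of both genotypes carried human NOTCH3 as a transgene, which bears the R182C variant in the first and is wild type in the control, so a difference between them is one between mice that both carry the human gene. The labels name the lines Tg350 (R182C-TgN3) and Tg100 (WT-TgN3), and the sources used here do not explain these names, so the variant, the line and the dose of the transgene cannot be told apart. Human NOTCH3 itself was higher in R182C-TgN3, by a log2 fold change of 2.44 ± 0.29 (SE) in SMC (adjusted p = 0.00276) and of 1.44 ± 0.19 in pericytes (adjusted p = 0.000277; edgeR quasi-likelihood test, Benjamini-Hochberg over all features). Brains were digested to microvascular fragments that were captured with magnetic beads carrying CD31 antibodies, which enriches endothelial cells (EC), so the number of cells of a type is not read here as its share of the brain. Each of the 4 batch labels held mice of a single age, and age and batch therefore cannot be told apart.

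Lipids move between brain cells as particles built around apolipoproteins. Apoe and Clu (clusterin) are secreted carriers, Abca1 and Abcg1 are transporters that load cholesterol from the cell onto such particles, Lrp1 is a receptor that takes Apoe particles in, and Soat1 turns cholesterol into the ester stored in lipid droplets. Nr1h3 encodes LXR alpha, a nuclear receptor for oxidised sterols that switches on Abca1, Abcg1 and Apoe, and Trem2 is a myeloid surface receptor for lipids and lipoproteins that signals through its adaptor Tyrobp (DAP12). Microglia that turn on the Trem2-dependent, disease-associated programme (DAM) raise Apoe while their homeostatic genes fall.

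The libraries held 17550806 to 64215050 UMIs each and 66658 barcodes together. Of these, 61625 had 500 or more genes detected and no more than 10% of UMIs on mitochondrial genes, and 58860 (95.5%) passed a gate, with at least 3 of 8 markers of a class detected and at least 2 times as many UMIs on them as on the markers of any other of 14 classes. The gates held 40136 EC, 13893 microglia, 2456 smooth muscle cells (SMC), 587 pericytes, 171 choroid plexus cells, 145 macrophages and 99 fibroblasts. Types were described in mice with at least 10 such cells, which left all 11 mice for EC, microglia, SMC and pericytes, 7 mice for macrophages and choroid plexus and 4 mice for fibroblasts. In each of these gates all 8 own markers had UMIs. Their sum exceeded that of every other class, which the gate rule fixes in advance and which is therefore no check. The smallest margin was in macrophages (7775 against 1116 CPM on the microglial markers, where CPM are UMIs scaled to the same total in every sum). Pairs of libraries shared 3 to 172 cell barcodes with a median of 11, and 6 pairs among 4 of the 6-month libraries (R182C-TgN3 replicates 1, 2 and 3 and WT-TgN3 replicate 3) shared the most; leaving the 1553 cells with a shared barcode out changed no call on a member.

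All 9 members are protein-coding genes, placed here on mm10 in the GENCODE vM21 annotation. Apoe lies at chr7:19696109-19699188, Trem2 at chr17:48346401-48354147, Tyrobp at chr7:30413760-30417585, Abca1 at chr4:53030787-53159895, Abcg1 at chr17:31057675-31117988, Lrp1 at chr10:127538161-127621148, Clu at chr14:65968483-65981547, Nr1h3 at chr2:91184061-91202834 and Soat1 at chr1:156424525-156474331. The annotated genes that overlap a member and were counted had at most 0.837 CPM in any gate. The promoters of Abca1, Apoe and Trem2 (250 bases before the start, GRCm38.p6, sequences from RefSeq) are shown because Abca1 and Apoe are classic LXR targets that were highest in the macrophage gate, where Nr1h3 had no UMI, and because Trem2 was read almost wholly in the myeloid gates.
Abca1 promoter, chr4:53159896-53160145, minus strand: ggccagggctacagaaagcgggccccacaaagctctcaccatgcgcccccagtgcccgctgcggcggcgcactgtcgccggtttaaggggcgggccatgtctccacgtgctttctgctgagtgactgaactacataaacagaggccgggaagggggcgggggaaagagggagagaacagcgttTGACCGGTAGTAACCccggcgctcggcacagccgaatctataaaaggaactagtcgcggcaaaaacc
Apoe promoter, chr7:19699189-19699438, minus strand: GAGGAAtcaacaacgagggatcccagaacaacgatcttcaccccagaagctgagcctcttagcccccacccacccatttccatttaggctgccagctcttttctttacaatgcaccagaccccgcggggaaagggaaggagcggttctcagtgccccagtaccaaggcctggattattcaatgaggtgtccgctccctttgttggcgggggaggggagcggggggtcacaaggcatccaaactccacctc
Trem2 promoter, chr17:48346151-48346400, plus strand: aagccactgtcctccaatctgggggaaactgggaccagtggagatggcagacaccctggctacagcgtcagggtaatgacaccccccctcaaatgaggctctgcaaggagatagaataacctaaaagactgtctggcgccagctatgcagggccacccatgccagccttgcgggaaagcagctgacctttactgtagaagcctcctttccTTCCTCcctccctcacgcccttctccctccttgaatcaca
Capitals in the Abca1 promoter mark the match to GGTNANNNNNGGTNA, a pair of GGTNA words 5 bases apart, the arrangement bound by LXR with its partner RXR, searched on both strands. The match began at base 184 of the window and 52 bases lay between it and the start. This motif stood in 204 of 32851 promoter windows (0.621%) and in no other window found for a member. Capitals in the Apoe and Trem2 promoters mark GAGGAA, the core read by the myeloid factor PU.1, or its complement TTCCTC, which 7639 windows (23.3%) held. A match describes letters in this window and is not a measured site. No window was found in the table for Tyrobp, Abcg1 and Clu.

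**Figure D1:**
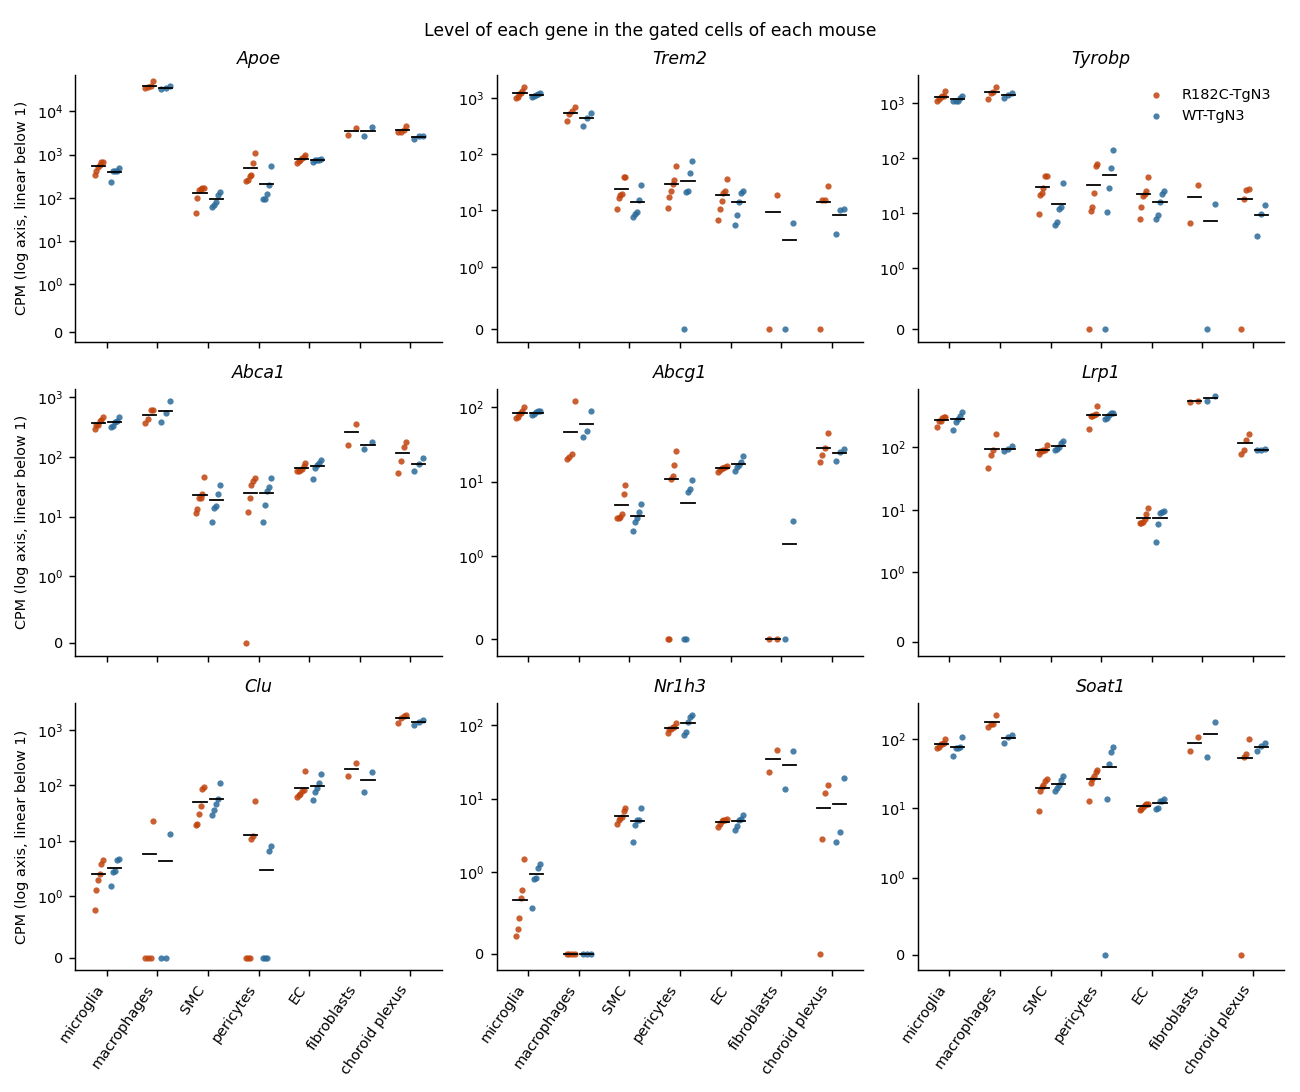
Level of each of the 9 members (CPM of summed UMIs, log axis) in the 7 gated cell types, with 1 point per mouse, coloured by genotype. Apoe stood highest in macrophages, Trem2 in microglia, Clu in choroid plexus, Nr1h3 in pericytes and Lrp1 in fibroblasts, each with all mice above those of the next type.

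Apoe was found at its highest level in perivascular macrophages, the scavenger cells beside vessels, at 38121 ± 5888 CPM (SD, n = 7 mice; 32616 to 50502). That was 10.8 times the mean of the next type, and every macrophage sum lay above every sum of another type. Fibroblasts (3530 ± 835 CPM, n = 4) and choroid plexus (3250 ± 790, n = 7) overlapped with each other, and choroid plexus stood apart from EC (774 ± 96.2, n = 11; 625 to 963). Below these, the neighbours in the order overlapped: EC with microglia (473 ± 138; 231 to 692), microglia with pericytes (358 ± 298; 92.1 to 1079) and pericytes with SMC (114 ± 46.2; 45.4 to 170).

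A UMI of Apoe can come from free RNA, so the share of cells with a UMI was set beside that of T or NK cells, which should lack the gene. With each cell thinned to 2000 UMIs, the mean share over mice was 100% in macrophages, 65.4% in EC and 14.9% in microglia (11.8 to 19.5%; 24.0% without thinning), against 4.33% in T or NK cells (0 to 7.53%; 10.1% without thinning). Pericytes gave 21.8% (11.8 to 31.2%) and SMC 11.9% (6.77 to 17.9%). B cells gave 19.4% (11.3 to 32.8%), a share as high as that of microglia and above that of SMC. The mean level of Apoe was 220 CPM in B cells (84.4 to 645) and 21.4 CPM in T or NK cells (0 to 41.5). Whether free RNA made the Apoe of SMC and pericytes was not tested. The median UMIs per cell were 5166.5 in microglia, 5262 in T or NK cells and 3734.25 in B cells. For Trem2 the same share was 84.0% in microglia and 2.96% in EC.

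Trem2 was a gene of the myeloid gates. It reached 1187 ± 164 CPM in microglia (999 to 1594, n = 11) and 500 ± 126 CPM in macrophages (318 to 701, n = 7), with all microglial sums above all macrophage sums, and at most 31.1 CPM on average in any other of the 7 types. Tyrobp, its adaptor, was not ordered in the same way: macrophages (1491 ± 263 CPM) and microglia (1255 ± 176 CPM) overlapped, and both stood apart from the rest, of which pericytes had the highest mean at 40.2 CPM. Tyrobp was also read in T or NK cells (269 CPM), where it serves NK cell receptors, while Trem2 averaged 10.3 CPM there.

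Among the 7 types, the efflux transporters had their highest means in the same myeloid gates, but with overlapping mice. Abca1 was measured at 545 ± 175 CPM in macrophages and 378 ± 57.2 CPM in microglia, then at 208 CPM in fibroblasts, 99.3 in choroid plexus, 67.0 in EC, 25.0 in pericytes and 20.9 in SMC. Abcg1 was measured at 83.0 ± 7.93 CPM in microglia and 51.5 ± 38.7 in macrophages, and at 4.25 CPM in SMC, while B cells gave 130 CPM and T or NK cells 73.9 CPM. Soat1 had its highest mean in macrophages (143 ± 45.04 CPM), followed by fibroblasts (101), microglia (80.8), choroid plexus (63.7), pericytes (32.6), SMC (21.1) and EC (11.2), each overlapping with the next.

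Nr1h3 ran the other way and was a pericyte gene. Its level was 98.5 ± 20.8 CPM in pericytes (73.5 to 138, n = 11), 3.10 times that of fibroblasts (31.8 CPM), which no pericyte sum overlapped. It was 5.42 CPM in SMC, 4.89 in EC and 0.7997 in microglia, and no UMI was seen in the macrophage gate, where 3 UMIs over the gate would have been 4.70 CPM. The other LXR gene, Nr1h2, was read in all 7 types at mean levels of 26.4 to 44.98 CPM.

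The receptor Lrp1 was highest in fibroblasts (571 ± 57.0 CPM, n = 4), apart from pericytes (321 ± 60.2 CPM), which overlapped with microglia (275 ± 48.6 CPM). Microglia in turn stood apart from choroid plexus (105 CPM), SMC (96.4) and macrophages (94.1), and EC had 7.44 ± 2.19 CPM. Clu was a choroid plexus gene at 1546 ± 229 CPM (1262 to 1870, n = 7), 9.46 times the level of fibroblasts (163 CPM). EC (94.3 CPM) and SMC (52.6 CPM) followed, and Clu was at 8.22 CPM in pericytes, 5.20 in macrophages and 2.85 in microglia.

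Between the neighbouring types, the 9 members were read against all features with a mean of at least 10 CPM. Of 8683 features compared between macrophages and microglia, the mice of the types did not overlap for 1200 (13.8%). Of 7 members compared, Apoe was higher in macrophages and Lrp1 and Trem2 were higher in microglia without overlap. Of 9271 features compared between pericytes and SMC, 1271 (13.7%) did not overlap, and of 8 members compared, Nr1h3 and Lrp1 did so, both higher in pericytes. The same mice supplied both types in each comparison.

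Patterns across the gates were compared by Pearson's r of log2(CPM + 1) over 62 sums, which come from the same 11 libraries, and 10018 features. The features most like Trem2 were Tyrobp (r = 0.96), Fcrls (0.96) and Fcgr3 (0.95), and those most like Tyrobp were Fcrls (0.98), Trem2 (0.96) and Fcer1g (0.95). Apoe was most like Dab2 (0.87), Igf1 (0.85) and Blvrb (0.84), and Nr1h3 most like Spry2 (0.93), Pard6g (0.92) and Dcbld1 (0.92). For the others these were Hipk2 (0.89), Slc7a8 (0.86) and Rgs2 (0.84) for Abca1, Slc16a6 (0.85), Cndp2 (0.84) and Gm26542 (0.83) for Abcg1, Pid1 (0.85), Cd63 (0.83) and Itgb5 (0.82) for Lrp1, Hist1h2bc (0.89), Me1 (0.88) and Atp5j (0.88) for Clu, and Rtn4 (0.81) and Maf (0.78) for Soat1. Tyrobp and Trem2 were the pair of members that named each other.

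Within microglia, Apoe sat in few cells. The 5% of microglia with the most Apoe held 76.0 to 91.4% of its UMIs in each mouse (median 87.7%). The same share was 11.4 to 18.4% for Trem2, 11.6 to 20.6% for Tyrobp, 18.5 to 23.1% for Abca1 and 16.6 to 21.0% for Lrp1. Apoe was thus spread unlike the other members that microglia carry at a high level, in all 11 mice.

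**Figure D2:**
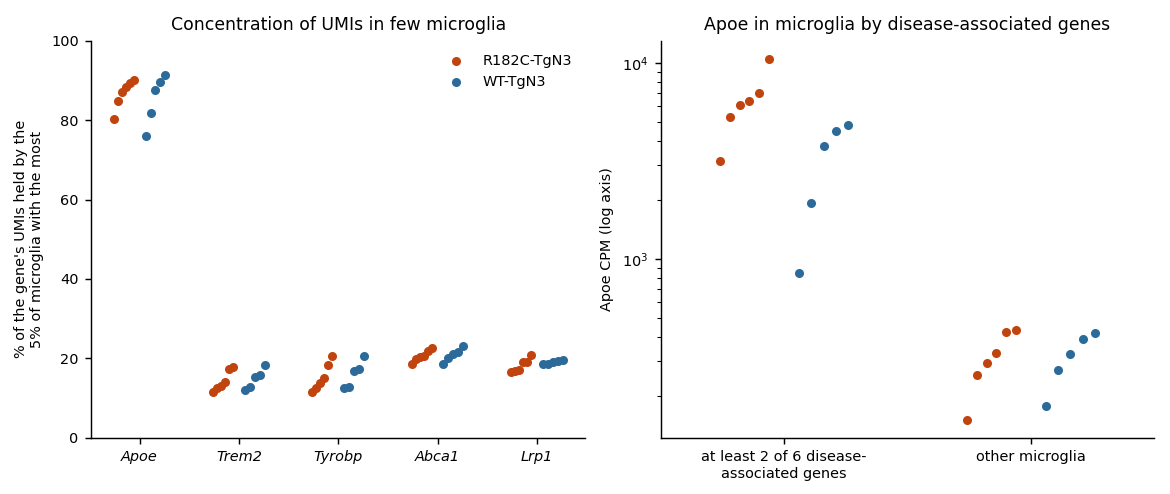
Percent of a gene's microglial UMIs that lay in the 5% of microglia with the most of it, for Apoe, Trem2, Tyrobp, Abca1 and Lrp1, with 1 point per mouse (n = 11). Apoe lay at 76.0 to 91.4% and the others at or below 23.1%.

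Microglia with at least 10 Apoe UMIs numbered 465 of 13893 (3.35%), and in sum they held 9404 CPM of Apoe against 91.9 CPM in the others, a contrast that the selection itself makes. They were described by genes that did not choose them. The 18 listed DAM genes summed to 7844 against 5433 CPM on average over mice, and the sum was higher in 11 of 11 mice. Some differed by more than the sum. Clec7a, a lectin receptor, was at 152 against 15.3 CPM (higher in 11 of 11 mice). The secreted phosphoprotein gene Spp1 was at 316 against 2.52 CPM (9 of 11). The lipoprotein lipase Lpl was at 89.6 against 9.33 CPM (10 of 11) and the receptor kinase Axl at 49.4 against 4.76 CPM (11 of 11).

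Among the members, Tyrobp (1658 against 1259 CPM, 11 of 11 mice) and Trem2 (1338 against 1200 CPM, 10 of 11) were somewhat higher in the Apoe-high cells, and Soat1 was at 108 against 78.1 CPM (8 of 11). Lrp1 was lower, at 185 against 259 CPM, and higher in 1 of 11 mice only. The 8 homeostatic markers of microglia summed to 6453 against 8635 CPM on average over mice and were lower in all 11 mice. Macrophage markers summed to 94.7 against 6.10 CPM and were higher in 11 of 11 mice, markers of neutrophils or monocytes to 29.8 against 2.81 CPM (9 of 11), while those of EC and of astrocytes were higher in 5 of 11. Whether macrophage RNA or cells had a part in the Apoe of these cells was not tested.

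A gate that did not use Apoe also held more of it than the other microglia. Microglia with at least 2 of the 6 DAM genes Clec7a, Cst7, Itgax, Lpl, Spp1 and Gpnmb numbered 11 to 76 per mouse. In them Apoe was measured at 843 to 10504 CPM, against 151 to 432 CPM in the other microglia, and it was higher in all 11 mice, the least so in WT-TgN3 6 months replicate 2 (843 against 416 CPM). The gate held 4.89 to 57.4% of the Apoe UMIs of microglia (median 38.3%). Tyrobp was higher in the gate in 11 of 11 mice, Trem2 in 10, Soat1 in 9 and Lrp1 in 0. The median UMIs per cell were higher in the cells of the DAM gate than in the other microglia in every mouse. They were 8013 against 4140 in R182C-TgN3 9 months replicate 1 and 4613 against 4286 in WT-TgN3 6 months replicate 3. They were also higher in the Apoe-high cells than in the others (median over mice 6657 against 5119). A deeper cell reaches 2 of 6 genes more readily, and the part of depth in these contrasts was not tested.

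Over the microglia of the 11 mice, the features whose level moved most like Apoe, of 8538 compared, were Ston2 (Pearson's r = 0.90), Mul1 (0.84), Bnc2 (0.84), Sidt2 (0.83) and Cacna1a (0.83). With this many features and 11 mice, such values are a ranking and no more.

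The genotypes were compared in UMIs summed per mouse. No member passed the threshold (adjusted p under 0.05) in any of the 7 types by edgeR's quasi-likelihood test with Benjamini-Hochberg adjustment over all features, nor by DESeq2, with Apoe in pericytes without the filter on low counts as the exception among the alternatives. Of the features tested, 0% were called in microglia (0 of 10950, 135 at an unadjusted p under 0.05; DESeq2 0), 0% in EC (0 of 13389, 196 unadjusted; DESeq2 0), 0% in macrophages (0 of 1251, 46 unadjusted; DESeq2 0) and 0% in fibroblasts (0 of 3607, 92 unadjusted; DESeq2 0). In SMC 0.0104% and in pericytes 0.0371% were called, which was NOTCH3 alone in each, and in choroid plexus 0.0489%, which were Flt1 and Tmsb4x. The members tested numbered 9 in EC, 8 in microglia, 7 in SMC, 5 in macrophages, fibroblasts and choroid plexus and 3 in pericytes, since the others were too low. By the plainer count of features whose mice did not overlap between genotypes, the background was 0.11% in microglia, 0.208% in SMC, 0.705% in pericytes and 0.12% in EC, and no member was among them there.

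For its microglial analysis the paper excluded a control sample, which its text does not name, because the microglia in it looked highly polarized. All 5 WT-TgN3 mice were kept here in every comparison of microglia. Apoe in microglia ranged over 333, 543 and 692 CPM (lowest, median and highest of 6) in R182C-TgN3, and was 231, 426, 420, 423 and 497 CPM in the 5 WT-TgN3 mice. The genotypes overlapped, and a single WT-TgN3 mouse at 6 months was the lowest of all. The log2 fold change was 0.44 ± 0.20 (SE), with an unadjusted p of 0.0473 that did not pass adjustment over all features (adjusted p = 1.00, edgeR). It was 0.29 without that WT-TgN3 mouse (6 months, replicate 1). It was 0.02 without the cells of the DAM gate and 0.07 when microglia were gated by shared myeloid genes in place of homeostatic markers, and over 28 alternatives the estimate stayed above 0. With sex as a covariate, no member in microglia had an unadjusted p under 0.05 (edgeR), while with batch or with age as a covariate 1 member did.

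Within batches, the log2 ratio of the mean Apoe levels in microglia was 0.45 for 2 mice of each genotype at 9 months and 0.64 for 2 of each at 6 months, and it was -0.01 for the batch with 1 of each. The remaining batch held 1 R182C-TgN3 mouse only. The share of microglia with an Apoe UMI, thinned to 2000 UMIs per cell, was 15.6% ± 2.54 (SD, n = 6) in R182C-TgN3 and 14.1% ± 2.26 (n = 5) in WT-TgN3, a difference of 1.48 percentage points (exact permutation test, 2-sided, p = 0.329, where the smallest p possible was 0.00216). That difference was 0.71 without R182C-TgN3 9 months replicate 3, 0.98 without WT-TgN3 6 months replicate 2, 0.97 without WT-TgN3 9 months replicate 1, 2.24 without R182C-TgN3 6 months replicate 1 and 2.33 without WT-TgN3 6 months replicate 3. In cells of the DAM gate, Apoe lay at 3164, 6238 and 10504 CPM (lowest, median and highest of 6) in R182C-TgN3 and at 843, 1934, 3789, 4511 and 4797 CPM in WT-TgN3, and the genotypes overlapped. The gate took 2.06 to 3.499% of microglia in R182C-TgN3 and 1.09 to 2.89% in WT-TgN3.

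The other members of microglia moved less. The log2 fold changes were 0.19 ± 0.13 (SE) for Tyrobp, 0.17 ± 0.12 for Soat1, 0.15 ± 0.14 for Trem2, 0.01 ± 0.13 for Abca1, 0.01 ± 0.11 for Abcg1, -0.02 ± 0.15 for Lrp1 and -0.34 ± 0.37 for Clu, which was 0.21 when microglia were gated by shared myeloid genes. With 6 against 5 mice, changes of the size of these errors were not detectable in either direction.

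**Figure D3:**
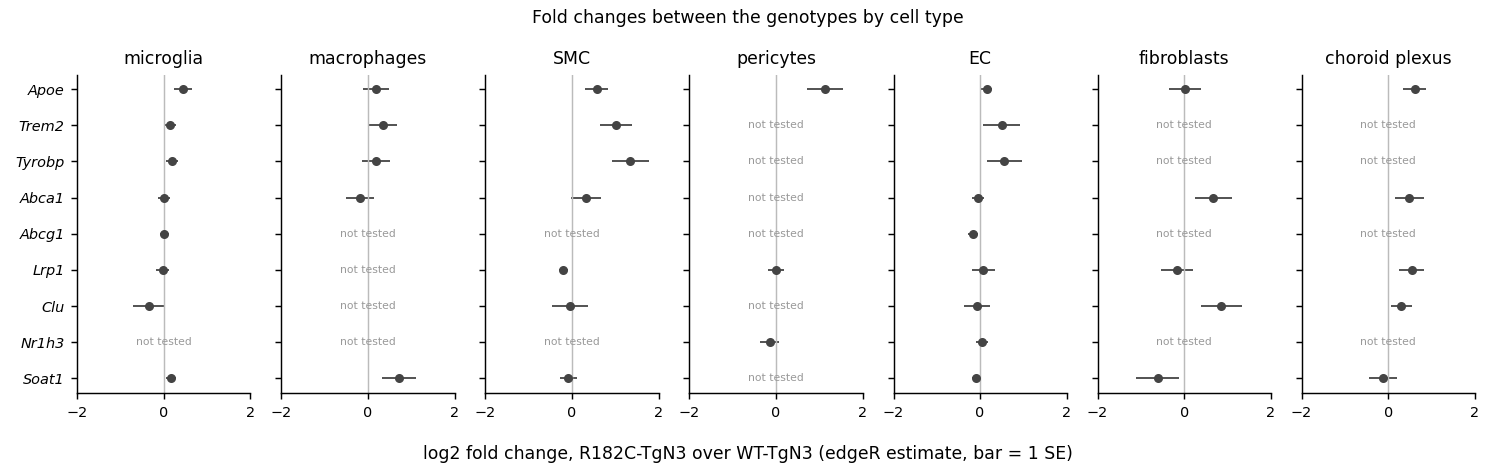
Log2 fold change of each member, R182C-TgN3 over WT-TgN3, in the 7 gated cell types, with bars of 1 SE from edgeR's quasi-likelihood fit. No member passed the threshold in any type, and the estimates for Apoe lie between 0.01 in fibroblasts and 1.13 in pericytes.

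In pericytes, Apoe lay at 248, 325 and 1079 CPM (lowest, median and highest of 6) in R182C-TgN3 and at 94.5, 124, 194, 549 and 92.1 CPM in WT-TgN3. A single WT-TgN3 mouse at 9 months stood among the R182C-TgN3 mice, and the other 4 lay below all of them. The log2 fold change was 1.13 ± 0.42 (SE; adjusted p = 0.983, edgeR), and the within-batch log2 ratios were 1.06, 2.17 and 0.69. It was 0.65 without R182C-TgN3 9 months replicate 2 and 1.85 without WT-TgN3 9 months replicate 1 (adjusted p = 0.169). With the filter on low counts left out, Apoe in pericytes did pass (1.22, adjusted p = 1.36e-05, edgeR), and the cause of that change was not tested. Pericytes numbered 20 to 147 per mouse. With the cells of all mice pooled, Apoe was at 725 CPM in the 180 pericytes with a UMI of a microglial marker. It was at 238 CPM in the 407 without one, and differences between mice are part of this contrast. Microglial markers in pericytes averaged 162 CPM in R182C-TgN3 (51.9 to 355) and 315 CPM in WT-TgN3 (48.4 to 906), with 1 of 8 higher in R182C-TgN3, and macrophage markers 26.8 CPM (12.0 to 40.4) against 24.0 CPM (0 to 84.0), with 4 of 8 higher and 3 of 8 at 0. Astrocyte markers in pericytes averaged 57.5 CPM in R182C-TgN3 (26.0 to 89.7) and 34.9 CPM in WT-TgN3 (15.3 to 42.0), with 4 of 8 higher and 3 of 8 at 0, and EC markers 659 CPM (280 to 1428) against 541 CPM (353 to 856), with 7 of 8 higher and none at 0. Their part in the Apoe difference was not tested. Lrp1 (0.01 ± 0.19) and Nr1h3 (-0.15 ± 0.22) were the other members tested in pericytes.

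In SMC, the myeloid pair gave the largest estimates. Tyrobp was at 9.67, 26.2 and 47.9 CPM (lowest, median and highest of 6) in R182C-TgN3 and at 12.2, 7.08, 35.6, 6.18 and 13.03 CPM in WT-TgN3, a log2 fold change of 1.35 ± 0.43 (SE; adjusted p = 1.00, edgeR). Trem2 was at 10.4, 19.6 and 39.4 CPM in R182C-TgN3 and at 7.74, 8.67, 28.5, 9.28 and 15.6 CPM in WT-TgN3, a change of 1.01 ± 0.36 (adjusted p = 1.00, edgeR). The genotypes overlapped for both genes, which SMC are not known to use. The within-batch log2 ratios were 1.83, 0.79 and -0.31 for Tyrobp and 1.18, 0.89 and -0.57 for Trem2, where the last came from the batch with 1 mouse of each genotype.

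The 8 microglial markers, none at 0, moved along with them. Summed over SMC they averaged 170 CPM in R182C-TgN3 (49.8 to 303) and 113 CPM in WT-TgN3 (64.1 to 235), and 8 of 8 had a higher mean in R182C-TgN3. Over the 11 mice the sum went with Trem2 (Pearson's r = 0.96, permutation p = 3.00e-05, adjusted 0.000120; Spearman's rho = 0.88, permutation p = 0.000630, adjusted 0.00252) and with Tyrobp (r = 0.93, permutation p = 0.000150, adjusted 0.000300; rho = 0.85, permutation p = 0.00154, adjusted 0.00308). Without the 2 mice farthest from the median of the sum, r was 0.89 and 0.82. The same sum went neither with Apoe (r = 0.06, permutation p = 0.863, adjusted 0.964; rho = 0.09, permutation p = 0.795, adjusted 0.947; r = -0.16 without 2 mice) nor with Lrp1 (r = 0.02, permutation p = 0.964, adjusted 0.964; rho = -0.03, permutation p = 0.947, adjusted 0.947; r = 0.36 without 2 mice). Over all mice the marker sum was 143 CPM in SMC and 8531 CPM in microglia, where Apoe averaged 473 and Lrp1 275 CPM. Microglial RNA of that amount would add little beside the 114 CPM of Apoe and 96.4 CPM of Lrp1 in SMC. Those 2 relations could therefore not serve as controls for the first 2. The 4 relations were the ones computed, and no batch held more than 4 mice, too few for a value within it.

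**Figure D4:**
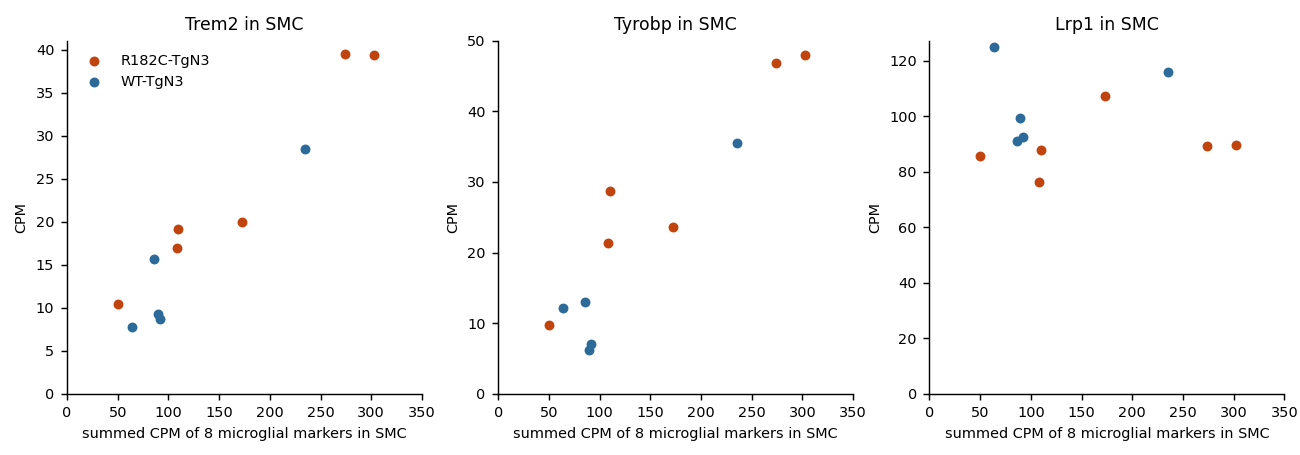
Level of Trem2, Tyrobp and Lrp1 in SMC (CPM) against the summed level of the 8 microglial markers in the same SMC (CPM), with 1 point per mouse (n = 11), coloured by genotype. Trem2 and Tyrobp rise with the marker sum (r = 0.96 and 0.93). Lrp1 does not (r = 0.02), but it could not serve as a control for them.

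Cell by cell, 823 SMC had a UMI of a microglial marker and 1633 had none. The cells of all mice were pooled for this split, so differences between mice are part of the contrast. In the SMC without one, Trem2 was at 7.94 CPM and Tyrobp at 9.82 CPM, against 40.2 and 44.2 CPM in those with one. Lrp1 was at 88.9 and 101 CPM and Apoe at 84.7 and 184 CPM. Whether microglial RNA made the genotype difference of Trem2 and Tyrobp in SMC was not tested.

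Apoe in SMC was measured at 45.4, 156 and 170 CPM (lowest, median and highest of 6) in R182C-TgN3 and at 66.3, 80.7, 118, 137 and 62.6 CPM in WT-TgN3. The lowest of all mice was an R182C-TgN3 mouse, although 4 of the 6 lay above every control mouse. All these levels of Apoe lay within or below its range in B cells (84.4 to 645 CPM). The log2 fold change was 0.57 ± 0.26 (SE; adjusted p = 1.00, edgeR), with within-batch log2 ratios of 0.31, 0.55 and 0.53. Macrophage markers in SMC averaged 19.2 CPM in R182C-TgN3 (12.6 to 27.0) and 17.0 CPM in WT-TgN3 (11.7 to 25.4), with 7 of 8 higher and none at 0, and their part in the Apoe difference was not tested. Lrp1 in SMC had an estimate of -0.20 ± 0.11, and Abca1 (0.32 ± 0.35, but -0.19 in cells of 1000 or more genes and no more than 5% mitochondrial UMIs), Soat1 (-0.09 ± 0.19) and Clu (-0.05 ± 0.41) were also tested.

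In EC, where all 9 members were tested, Apoe had a log2 fold change of 0.15 ± 0.13 (SE), Abcg1 of -0.16 ± 0.11 and Soat1 of -0.10 ± 0.10. Tyrobp (0.56 ± 0.40) and Trem2 (0.50 ± 0.42) had wider errors and were 0.24 and 0.18 without R182C-TgN3 9 months replicate 1. The microglial markers in EC averaged 127 CPM in R182C-TgN3 (71.8 to 209) and 111 CPM in WT-TgN3 (40.4 to 169), with 8 of 8 higher and none at 0. Lrp1 (0.08), Nr1h3 (0.04), Abca1 (-0.04) and Clu (-0.07) were near 0.

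In choroid plexus, Apoe did not overlap between the genotypes, at 3316, 3340, 3638 and 4702 CPM in the 4 R182C-TgN3 mice and 2276, 2703 and 2774 CPM in the 3 WT-TgN3 mice. The mice of 212 of 4094 features (5.18%) were as cleanly apart there, and Apoe was the only member of 5 tested among them. Its log2 fold change was 0.61 ± 0.26 (SE; adjusted p = 0.999, edgeR). The within-batch log2 ratios were 0.28 (1 R182C-TgN3 against 2 WT-TgN3 mice) and 0.68 (1 of each). The R182C-TgN3 mice at 3340 and 4702 CPM had no control mouse with enough choroid plexus cells in their batches. EC markers in the choroid plexus gate, none at 0, averaged 552 CPM in R182C-TgN3 (230 to 1292) against 67.7 CPM in WT-TgN3 (22.7 to 110), with 8 of 8 higher, and their part in the Apoe difference was not tested. Lrp1 (0.54), Abca1 (0.49), Clu (0.30) and Soat1 (-0.12) did not pass either.

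In macrophages, Soat1 lay at 150, 162, 162 and 221 CPM in the 4 R182C-TgN3 mice and at 87.0, 106 and 115 CPM in the 3 WT-TgN3 mice, without overlap, as did 65 of 1251 features (5.2%), and it was the only one of 5 members to do so. These levels rest on 4 to 22 UMIs per mouse. The log2 fold change was 0.71 ± 0.39 (SE; adjusted p = 0.992, edgeR). Trem2 (0.34 ± 0.32), Apoe (0.19 ± 0.30), Tyrobp (0.18 ± 0.32) and Abca1 (-0.19 ± 0.32) had smaller estimates for their errors. In fibroblasts, with 2 mice of each genotype, 28.5% of features did not overlap, among them Lrp1 of 5 members, lower in R182C-TgN3 at 535 and 540 against 552 and 655 CPM. The estimates there were 0.86 ± 0.48 for Clu, 0.67 ± 0.43 for Abca1, 0.01 ± 0.37 for Apoe, -0.16 ± 0.37 for Lrp1 and -0.61 ± 0.49 for Soat1. The estimate for Apoe was thus above 0 in 7 of 7 types, which came from the same mice, although in macrophages it was -0.079 in cells of 1000 or more genes and no more than 5% mitochondrial UMIs and -0.20 with own markers 4 times the next class.

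Whether the genotypes differed more at one age than at the other was tested as an interaction term in the 4 types with enough mice. No member passed, and 0% of features were called in microglia (0 of 11547, 264 unadjusted), SMC (0 of 10318, 316 unadjusted), pericytes (0 of 3660, 196 unadjusted) and EC (0 of 14109, 316 unadjusted) by edgeR, where DESeq2 called 4, 0, 0 and 5 features and no member. The term for Apoe, in log2 units at 9 over 6 months, was -0.02 ± 0.38 (SE) in microglia, -0.21 ± 0.54 in SMC, -1.01 ± 0.82 in pericytes and 0.11 ± 0.27 in EC. The largest terms by unadjusted p were 1.75 ± 0.80 for Tyrobp in SMC and 0.90 ± 0.38 for Lrp1 in EC, both with an adjusted p of 1.00 (edgeR).

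The other genes of these pathways, from 7 lists, were counted in the same fits. No listed gene passed the threshold in any of the 7 types by edgeR. Of 18 listed DAM genes other than members, 17 were tested in microglia and all 17 had an estimate above 0. Their median log2 fold change was 0.28 against 0.00 over all features, of which 50.8% were above 0. The 17 genes come from the same mice, and several, among them Clec7a, Spp1, Lpl and Axl, were higher in the same few Apoe-high microglia. They are not independent, and their count is no test of a genotype difference. Counts of the other lists are to be read in the same way. The smallest unadjusted p values in microglia were those of Treml2 (-0.54 ± 0.20), the growth factor Igf1 (1.61 ± 0.65) and Spp1 (1.88 ± 0.81), all with an adjusted p of 1.00. These estimates rest on few UMIs or few cells. Over all mice, Igf1 had 96 UMIs in the Apoe-high microglia and 54 in the others, Spp1 1006 and 177, and Treml2 30 and 420. Spp1 averaged 10.6 ± 18.1 CPM (SD) over the mice (1.30 to 62.5). In microglia the other lists had medians of -0.02 for the TREM2 pathway (7 of 15 tested above 0), 0.09 for LXR partners and targets (10 of 12), 0.02 for sterol synthesis (8 of 14), 0.07 for lipoprotein receptors (5 of 9), -0.04 for apolipoproteins and efflux (0 of 2) and 0.05 for cholesterol storage and hydrolysis (6 of 8).

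In EC, sterol synthesis genes had a median of -0.08, with 4 of 16 above 0, against 52.9% of all features. The other lists in EC had medians of -0.03 (TREM2 pathway, 7 of 15 above 0), 0.02 (LXR, 8 of 13), -0.00 (lipoprotein receptors, 4 of 8), 0.02 (apolipoproteins and efflux, 3 of 6), 0.02 (storage and hydrolysis, 5 of 10) and 0.16 (DAM genes, 11 of 15). In EC, the exchange factor Vav3 (-0.99 ± 0.30), the cholesterol hydroxylase Ch25h (1.13 ± 0.38) and the apolipoprotein Apod (0.34 ± 0.15) had the smallest unadjusted p values, with adjusted p of 1.00.

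In SMC, the medians were -0.07 for sterol synthesis (7 of 14 above 0), 0.09 for LXR partners and targets (7 of 12), 0.10 for the TREM2 pathway (6 of 8), 0.09 for lipoprotein receptors (6 of 8), -0.12 for apolipoproteins and efflux (1 of 4), -0.06 for storage and hydrolysis (2 of 7) and 0.14 for DAM genes (7 of 9). Insig1, a sterol-sensing regulator of cholesterol synthesis, had an estimate of -0.40 ± 0.20 in SMC and the lysosomal lipase Lipa of 0.50 ± 0.22, both with an adjusted p of 1.00. In the 4 smaller gates few listed genes could be tested. Sterol synthesis genes had medians of -0.06 in fibroblasts (5 of 12 above 0), -0.20 in choroid plexus (1 of 8) and -0.14 in pericytes (0 of 1), and DAM genes of 0.11 (5 of 8), 0.24 (4 of 5) and 0.16 (3 of 4), with 0.05 in macrophages (4 of 6). LXR partners and targets had medians of -0.17 in fibroblasts (2 of 7), 0.23 in choroid plexus (3 of 5), -0.32 in pericytes (1 of 4) and 0.19 in macrophages (2 of 3), and the TREM2 pathway of -0.11 (1 of 3), 0.30 (2 of 2), -0.48 (0 of 1) and 0.09 (5 of 8). Lipoprotein receptors had medians of -0.08 (1 of 2), -0.05 (2 of 5), -0.02 (1 of 3) and -0.08 (1 of 2) in the same order, storage and hydrolysis of 0.19 (1 of 2), 0.08 (3 of 5), 0.28 (1 of 1) and -0.21 (1 of 2), and apolipoproteins and efflux of -0.04 (0 of 1) in fibroblasts, 0.16 (1 of 2) in choroid plexus and -0.18 (0 of 1) in macrophages. Over all features these gates had medians of -0.01 to 0.03. The smallest p values there were those of Nr1d1 in pericytes (-0.81 ± 0.32) and in fibroblasts (-1.80 ± 0.75), of Cd9 in choroid plexus (0.51 ± 0.27) and of the sterol hydroxylase Cyp27a1 in macrophages (-0.59 ± 0.43), none of which passed adjustment.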

How the data were processed

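The deposited matrices held whole-number UMI counts per gene and cell, made by the authors from 10x Genomics 3-prime libraries of 11 mice. Cell Ranger 7.0.0 and mm10 are named in the submitters' processing notes, and the features carry human NOTCH3 in addition to the mouse genes. A filtered matrix leaves out droplets without cells, and UMIs on reads shared by near-identical genes cannot be placed. The members, gene lists and markers were chosen with earlier results of these data known.

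Cells were kept, gated and summed per mouse and type as stated above. CPM are UMIs of the gene scaled to the same total of UMIs in every sum. Cells with markers of another class passed the gate as long as their own markers had at least 2 times the UMIs, so some mixed cells and doublets remain, and no doublet caller was run. The genotypes were compared in the sums with edgeR 4.0.16 in R 4.3.3 (filterByExpr, TMM, quasi-likelihood F test, no covariate, ribosomal, mitochondrial, Gm and Rik genes left out), with Benjamini-Hochberg adjustment over all features tested and a threshold of 0.05. The printed SE is the log2 fold change over the root of F. P-values of the main edgeR fit set the genotype difference against the spread between mice of the same genotype. With no covariate, that spread includes age, batch and sex. DESeq2 1.42.0 was an alternative, beside other scaling, filters, gates, covariates and mice left out. The edgeR fit was also run on simulated microglial and pericyte sums with known changes. Every gene had the same spread there, so this does not show how many changes the real fits miss or call falsely.

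Same age and replicate number paired 5 pairs of mice in microglia, where the correlations of their deviations were 0.13 to 0.42. Named were the 9 members, at most 3 listed genes per type with the smallest p where none passed, the 3 features most like each member (5 for Apoe in microglia) and gate markers, and some items that this rule names are not reported here. Sequences and coordinates of promoters are from RefSeq on GRCm38.p6, and gene coordinates from GENCODE vM21. The floor stated for Nr1h3 covers counting error only, whereas the printed SD and SE include the spread between mice.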

Additional observations from a re-analysis of the deposited data

Results flagged for a closer look

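In 86 groups of 4 to 6 mice of 1 genotype, 7 (8.14%) held a mouse far from the others by Dixon's test at the 95% level, which chance passes in about 1 of 20 groups. Apoe in the microglia of WT-TgN3 6 months replicate 1 was 231 CPM, with 420 to 497 CPM in the other 4 mice. Apoe in the pericytes of WT-TgN3 9 months replicate 1 was 549 CPM (68 UMIs in 28 cells), with 92.1 to 194 CPM in the others. Tyrobp in the SMC of WT-TgN3 6 months replicate 3 was 35.6 CPM, with 6.18 to 13.03 CPM in the others. Abca1 in the SMC of R182C-TgN3 6 months replicate 2 was 45.4 CPM (25 UMIs in 77 cells), with 11.3 to 24.0 CPM in the others. Abcg1 in the macrophages of R182C-TgN3 9 months replicate 3 was 121 CPM, from 9 UMIs in 15 cells, with 20.1 to 23.2 CPM in the others. Clu in the pericytes of R182C-TgN3 9 months replicate 3 was 53.0 CPM (29 UMIs in 147 cells), with 0 to 12.0 CPM in the others. Clu in the EC of R182C-TgN3 6 months replicate 1 was 183 CPM (3314 UMIs in 3214 cells), with 63.0 to 83.2 CPM in the others.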

How the results depend on the processing

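Of 739 values under alternatives other than leaving out a named mouse, some of which also lost mice through the minimum of cells or the pairing, 710 kept their direction and side of the threshold, and of 519 values with a mouse left out, 477 did. The cause of a change was not tested. The type with the highest mean stayed the same for all 9 members in the settings run for levels. These were the mean CPM over cells, 4 markers, own markers 4 times the next class, shared barcodes left out and each mouse left out. The other gates and cell filters were not run for levels. Without the filter on low counts, 1 member was called in pericytes, Apoe (log2 fold change 1.22, adjusted p = 1.36e-05, edgeR). Over all features that setting called 24 in pericytes in place of 1, 43 in choroid plexus in place of 2, and 12 in fibroblasts and 1 in macrophages in place of 0. In pericytes, age as a covariate or the replicate block called 2 features, in choroid plexus batch as a covariate, 4 markers or own markers 4 times the next class called 1, and in macrophages age as a covariate called 1. Counts fell to 0 in SMC with the stricter cell filter of 1000 genes and 5% together, which also left 10 mice, and in choroid plexus with at least 5 cells or without WT-TgN3 6 months replicate 3, and without WT-TgN3 9 months replicate 1, 11 were called in choroid plexus. Some estimates changed sign, most of them near 0. With DESeq2 size factors Abca1 in microglia was -0.0023 and Lrp1 in pericytes -0.00083. With batch as a covariate, Abca1 and Lrp1 in microglia were -0.058 and 0.013. With age as a covariate, Lrp1 in microglia was 0.031 and Clu in SMC 0.062. With the replicate block, Abca1, Lrp1 and Apoe in microglia were -0.048, 0.020 and 0.46, and Lrp1 in pericytes -0.035. The block changed no call on a member, and outside microglia not every pair of mice with the same number deviated together (SMC -0.19 to 0.21, EC -0.11 to 0.35). With the share of microglia, the 5 pairs of the block gave 0.71 percentage points (exact permutation p = 0.562, where the smallest p possible was 0.0625), the same difference as without the unpaired mouse. With microglia gated by shared myeloid genes, Abca1 was -0.019 and Clu 0.21 (from -0.34). In cells of 1000 or more genes and no more than 5% mitochondrial UMIs, Apoe, Tyrobp and Abca1 in macrophages were -0.079, -0.060 and 0.053, Abca1 (from 0.32) and Soat1 in SMC -0.19 and 0.074, and Lrp1 in pericytes -0.048. With own markers 4 times the next class, Apoe and Tyrobp in macrophages were -0.20 and -0.18, and Clu in SMC 0.17. With at least 5 cells, Abca1 in macrophages was 0.085 and Soat1 in choroid plexus 0.084. Lrp1 in pericytes was -0.00014 with all features kept, -0.0015 and -0.0056 with 4 and 2 markers and -0.0085 without shared barcodes, and Abca1 in EC was 0.036 without Plvap cells. The settings of 4 times, 5 cells, shared barcodes and Plvap were chosen after seeing the data.

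Leaving out a mouse turned the sign of some estimates. The ranges in microglia were -0.065 to 0.11 for Abca1, -0.039 to 0.060 for Abcg1 and -0.14 to 0.11 for Lrp1. In EC they were -0.18 to 0.045 for Abca1, -0.38 to 0.18 for Clu, -0.12 to 0.22 for Lrp1 and -0.046 to 0.12 for Nr1h3. In macrophages they were -0.39 to 0.084 for Abca1, -0.057 to 0.26 for Apoe and -0.055 to 0.31 for Tyrobp. In SMC they were -0.31 to 0.30 for Clu and -0.18 to 0.058 for Soat1, and in pericytes -0.086 to 0.13 for Lrp1. The terms of Apoe by age were -0.057 to 0.30 in EC, -0.54 to 0.010 in SMC and -0.24 to 0.30 in microglia. Fibroblasts have no such values, since 1 mouse of a genotype would be left. Without a mouse, the difference in the share of microglia with an Apoe UMI was 0.71 to 2.33 percentage points. Macrophages, fibroblasts and choroid plexus were read from 4 to 7 mice with at least 10 such cells each, which limits their precision.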
